A study of Mus musculus with 36 samples.

Results

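The genes described here are the 5 protein-coding genes around Mir324 on mouse chromosome 11, read transcript by transcript: Gabarap, Phf23, Dvl2, Acadvl and Dlg4. They were taken by position, 5 of the 30205 genes in the tables. The rule uses no expression value, but earlier results of these data were known when the genes were proposed. The annotation lists 49 transcripts of these genes, and 40 of them have values in the tables: 4 of Gabarap, 9 of Phf23, 7 of Dvl2, 7 of Acadvl and 13 of Dlg4. In the order of the chromosome (GRCm38), Gabarap lies at 69991143 to 69994951, followed by Phf23 at 69995777 to 70000009 and Dvl2 at 70000595 to 70012301. Acadvl lies at 70010183 to 70015411 and Dlg4 at 70016942 to 70047522. Acadvl is read from the minus strand and the other 4 genes from the plus strand.

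The series holds 36 RNA-seq libraries from long bones of mice aged 20 weeks, 6 in each of 6 groups. Bone marrow macrophages (BMM) were marrow cells kept for 5 days in 30 ng/mL M-CSF, the growth factor of macrophages. Osteoclast cultures (OC) were the same kind of cells kept for 5 days in 30 ng/mL M-CSF with 50 ng/mL RANK-L, the ligand that drives macrophages to fuse into bone-resorbing osteoclasts. Osteoblast cultures (OB) came from cells growing out of bone chips and spent 18 days in osteogenic medium with β-glycerophosphate and ascorbic acid. Each culture was made from mice labelled wild-type control (WT) and from mice labelled Mir324-null (null). The labels do not give the extent of the deleted segment, and they do not say whether the 6 libraries of a group came from 6 mice, so p-values measure the spread between these libraries, which may be in part technical.

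Mir324 encodes a microRNA, a short RNA that is cut from a hairpin in a longer transcript and guides repression of messages that pair with its seed. One gene can give several transcripts that differ in their first exon, in the exons joined or in where they end, and some of these carry the same protein. Dvl2 is a Dishevelled protein that relays Wnt signals from Frizzled receptors, a pathway that drives bone formation. Acadvl is the mitochondrial enzyme that starts the oxidation of very long fatty acids, Gabarap is attached to the membranes of autophagosomes, Phf23 carries a PHD finger that reads methylated histone H3, and Dlg4 is the scaffold protein of the postsynaptic density.

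The hairpin of Mir324 lies at chr11:70012043-70012131 on the plus strand, within the 3′ untranslated part of the last exon of Dvl2-202 and Dvl2-207, at bases 4779 to 4867 of 5037. The 2 mature microRNAs (RefSeq, GRCm38.p6) are shown because their place in Dvl2 decides which transcripts are set apart below, and capitals mark the seed, bases 2 to 8.
mmu-miR-324-5p: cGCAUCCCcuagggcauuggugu
mmu-miR-324-3p: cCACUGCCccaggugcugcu
The first lies at chr11:70012060-70012082 and the second at chr11:70012095-70012114, both on the plus strand. Their seeds differ. No transcript of Mir324 is among those with values, so no check of the genotype labels was made on it.

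Exon junctions at which the main Gabarap and Phf23 transcripts differ are shown because they change the coding sequence. They are not the only sequence that separates the isoforms counted below. Exon 1 starts at 69991143 in Gabarap-201 and at 69991639 in Gabarap-202, and at 69995777 in Phf23-201 and 69995876 in Phf23-202. Each run of 30 coding bases (GENCODE M21, GRCm38, plus strand) crosses 1 junction, with the downstream exon in capitals.
Gabarap-201: cttctgatcttacagTTGGTCAATTCTACT
Gabarap-202: cttctgatcttacagTGCCACGATGGGTCA
Phf23-201: ccccctagcaaagagGAAAGCGATTGGCCA
Phf23-202: ccccctagcaaagagGCTCCTGACAGTGCT
In Gabarap-201 exon 3 starts at 69992582, and in Gabarap-202 it starts at 69992676, so that 94 exonic bases are skipped and the coding sequence is 318 instead of 351 bases long. In Phf23-201 exon 4 starts at 69998301, and in Phf23-202 at 69998502, which leaves a coding sequence of 1002 instead of 1203 bases. Phf23-204, Phf23-205 and Phf23-209 start from later first exons and share a coding sequence of 813 bases that begins at 69998532.

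Depth ran from 14118972 to 26347581 estimated counts in a library. An estimated count is the number of reads assigned to a transcript after reads that match several transcripts are divided among them. TPM, the level corrected for transcript length and library size, is the scale used to compare transcripts and genes. The culture labels were checked against marker lists. The 5 osteoclast markers summed to between 29511 and 33596 TPM in WT OC but to between 215 and 539 TPM in null OC, where Calcr was listed at 0, and all 5 of 5 fell by the test at gene level. The libraries labelled null OC were thus far below WT OC in the markers of their label. The 4 macrophage markers summed to 4146 to 5082 TPM in WT OC and 5368 to 6603 TPM in null OC. In BMM they summed to 5251 to 5627 TPM in WT and 5275 to 6883 TPM in null. Single macrophage markers moved in different directions. Adgre1 rose in null BMM (log2 change 1.99) and null OC (2.77), and Cd68 fell in both (-0.52 and -0.27). Mrc1 fell in null BMM (-2.30) and did not pass in OC, and Csf1r rose in null OC (0.40) and did not pass in BMM. The 5 osteoblast markers summed to 17956 to 25559 TPM in WT OB and 30645 to 44160 TPM in null OB. In BMM the osteoclast markers summed to 16.3 to 22.6 TPM in WT and 138 to 178 TPM in null, where Mmp9 went from a mean of 0.288 to 105 TPM and Calcr was at 0. The 5 neutrophil markers summed to 0.627 to 2.11 TPM in WT BMM and 43.3 to 104.9 TPM in null BMM, and to 0 to 2.02 TPM in WT OC and 40.1 to 54.2 TPM in null OC. S100a8 alone made up nearly all of these sums, with means of 70.2 TPM in null BMM and 47.3 TPM in null OC, and the other 4 (S100a9, Ngp, Camp and Ltf) had means under 1 TPM in all BMM and OC groups. The osteoblast markers summed to 1.70 to 5.74 TPM in WT BMM and 7.67 to 24.6 TPM in null BMM, and to 2.00 to 3.07 TPM in WT OC and 11.1 to 65.4 TPM in null OC. Col1a1 made up most of the mean sum in each of these groups. OB cultures also held macrophage markers (1412 to 2039 TPM over both genotypes) and, at higher sums, osteoclast markers (3941 to 4964 TPM in WT and 5133 to 7769 TPM in null), of which Ctsk and Mmp9 rose in null OB. The part of these differences in the values below was not tested, and in bulk RNA fewer cells of a type and less RNA per cell cannot be told apart.

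Levels were compared by genotype within each cell type for all 40 member transcripts, of which 14 passed the filter on low counts (edgeR's default) in BMM, 15 in OC and 18 in OB. In BMM, 9 of the 14 passed the test for level (6 higher and 3 lower in null), against 29.5% of all 25450 transcripts tested (15.5% higher and 14% lower). In OC, 8 of 15 passed (5 higher and 3 lower), against 39.2% of 25829 (20% higher and 19.2% lower). In OB, 2 of 18 passed (both lower), against 12.7% of 28569 (6.04% higher and 6.65% lower). Identical transcripts such as Dvl2-202 and Dvl2-207 count here as 2. These background shares are large, so a call for level does not set the members apart from other transcripts.

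**Figure D1:**
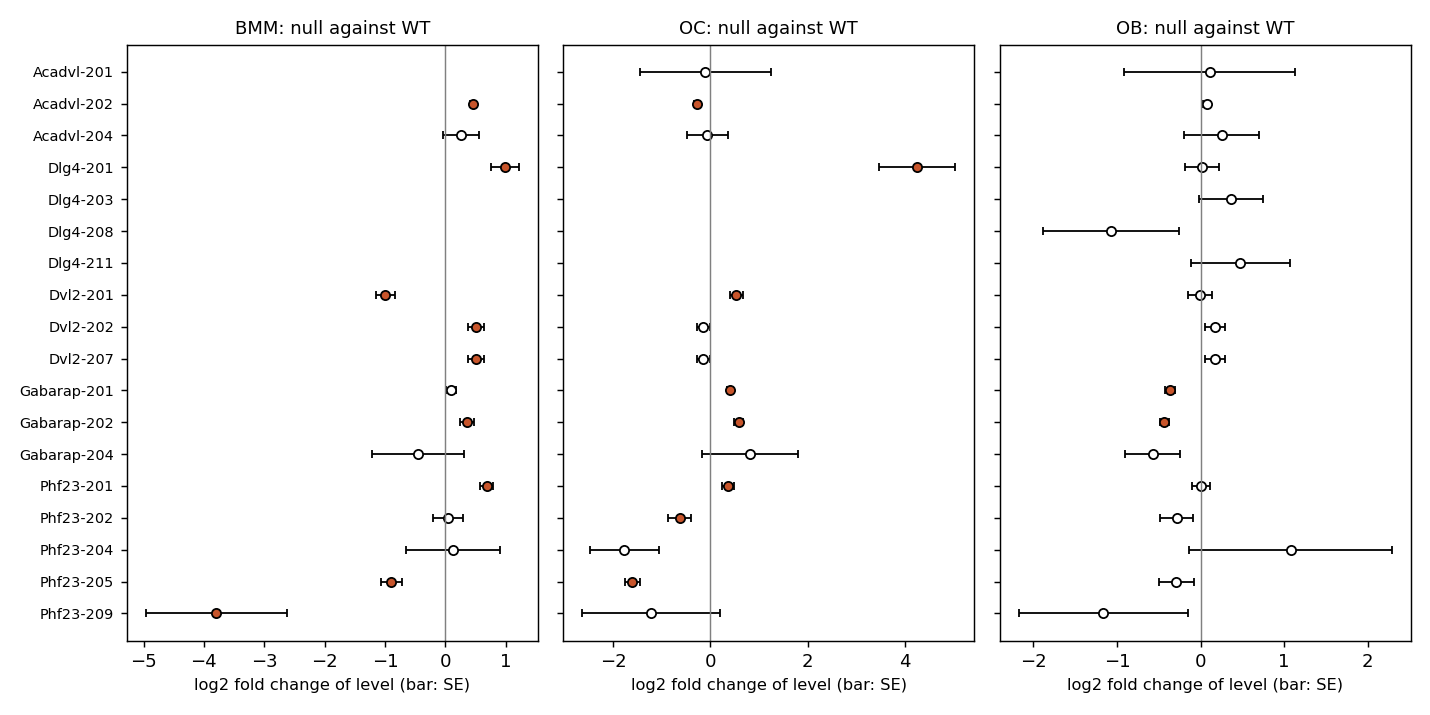
Fitted log2 fold change of level, null against WT (horizontal axes), for each member transcript that passed the filter on low counts, in BMM, OC and OB; bars are 1 SE and filled points have an adjusted p under 0.05. Filled points number 9 in BMM, 8 in OC and 2 in OB, and the horizontal scales differ between the panels.

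The main forms of Dvl2 were present in every group, and their shares differed between the genotypes in BMM and OC. In null BMM, Dvl2-201, the form that ends at 70010111 before the hairpin, fell to 0.446 of its WT mean TPM, while the pair that holds the hairpin, Dvl2-202 and Dvl2-207, rose. The share of Dvl2 TPM in this pair rose from 19.3% ± 3.59 (SD, n = 6) in WT BMM to 41.7% ± 8.16 (n = 6) in null BMM. In OC the share moved the other way, from 42.3% ± 3.70 to 32.2% ± 5.29 (n = 6 each). In OB it was 29.5% ± 4.63 in WT and 32.2% ± 7.33 in null (n = 6 each). The test of usage over all transcripts, described below, called no Dvl2 transcript by genotype in any of the 3 cell types. The pair is called hairpin-holding after its annotated sequence. As the extent of the deleted segment is not given, RNA in null libraries may lack part of that sequence. The bearing of this on the null estimates of the pair and of Acadvl was not tested.

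Dvl2-201, Dvl2-202 and Dvl2-207 carry the same coding sequence of 2208 bases and differ at both ends. Exon 1 starts at 70000595 in Dvl2-201 and at 70000617 in Dvl2-202 and Dvl2-207. Dvl2-202 and Dvl2-207 are identical in sequence, so their estimates are equal in every library and only their sum is informative. Of the 5007 stretches of 31 bases (the match length used here to ask what tells transcripts apart) in this pair, 23.2% are found in no other transcript, and 929 also occur in Acadvl on the opposite strand. Dvl2-201 has 22 stretches of its own, which come from its 5′ start. Its last exon (70009144 to 70010111) lies within exon 15 of Dvl2-202 (70009144 to 70010777) and gives it no stretch of its own. The hairpin touches 119 stretches of Dvl2-202, and its sequence does not occur in Acadvl transcripts.

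Dvl2-201 stood at 10.9, 12 and 14.3 TPM (lowest, median and highest of 6) in WT BMM and at 3.31, 5.24 and 8.27 TPM in null BMM. All 6 null libraries were below all 6 WT libraries, and the fitted change in level was a log2 fold change of -0.99 (SE 0.16, edgeR quasi-likelihood test, adjusted p = 0.000465). The hairpin-holding pair summed to 2.45, 3.12 and 3.54 TPM in WT BMM and 3.38, 3.85 and 4.42 TPM in null BMM. These ranges overlapped narrowly, and each of the pair's equal members rose by 0.51 on the log2 scale (SE 0.13, adjusted p = 0.0108). The share of the pair was 12.6%, 20.1% and 22.8% in WT and 28.0%, 42.9% and 52.0% in null, with no overlap. The difference of 22.5 percentage points gave p = 0.00216 in a two-sided exact permutation test, the smallest value that 6 libraries against 6 allow, and 0.00649 after adjustment over the 3 cell types.

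In OC, Dvl2-201 stood at 4.75, 6.07 and 7.65 TPM in WT and 6.42, 7.23 and 9.09 TPM in null. It rose in null OC by 0.54 on the log2 scale (SE 0.13, adjusted p = 0.00421), although the ranges overlapped. The hairpin-holding pair stood at 4.07, 4.95 and 6.04 TPM in WT and 3.26, 3.77 and 4.35 TPM in null, and its fitted log2 difference of -0.14 (SE 0.13) did not pass the test (adjusted p = 0.421). The share of the pair was 37.4%, 43.3% and 46.9% in WT against 26.9%, 31% and 39.7% in null. The null OC share was lower by 10.1 percentage points (exact permutation p = 0.0108, adjusted 0.0162), and the ranges overlapped.

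In OB, Dvl2-201 stood at 8.22, 10.2 and 11.7 TPM in WT and 8.06, 11.7 and 15.5 TPM in null, with a fitted log2 difference of -0.01 (SE 0.14, adjusted p = 0.984). The hairpin-holding pair stood at 3.37, 4.58 and 4.98 TPM in WT and 5.05, 5.55 and 6.88 TPM in null. These TPM ranges did not overlap, but the fitted log2 difference of 0.17 (SE 0.12) did not pass (adjusted p = 0.443). The share of the pair overlapped over most of its range, from 23.4% to 37.7% in WT and from 23.4% to 45.6% in null, and the difference of 2.66 percentage points gave an exact permutation p of 0.502.

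**Figure D2:**
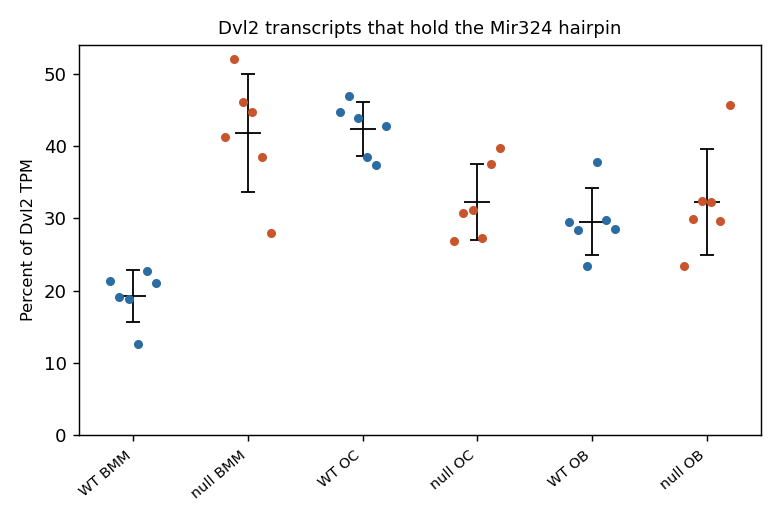
Percent of Dvl2 TPM in the hairpin-holding transcripts Dvl2-202 plus Dvl2-207 (vertical axis), 1 point per library, in 6 groups (blue WT, orange null); bars give the mean and 1 SD. All null BMM libraries (28.0% to 52.0%) lie above all WT BMM libraries (12.6% to 22.8%), whereas null OC lie mostly below WT OC.

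TPM and the fitted fold changes are on different scales. Over genes with a mean of at least 5 TPM, the median log2 ratio of mean TPM in null to WT was -0.14 in BMM, -0.24 in OC and 0.14 in OB, whereas the fit centres these medians near 0. A member that is lower by the median amount in TPM has a fitted change near 0. No member transcript that passed the test for level differed in sign between the scales. Shares within a gene do not depend on this.

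Total Dvl2 was 16.4 ± 1.63 TPM in WT BMM and 9.61 ± 1.90 TPM in null BMM, and it was 11.9 TPM in both OC groups (SD 1.96 in WT, 1.42 in null). The lower share of the pair in null OC thus went with an equal mean total. The remaining 4 Dvl2 transcripts, all annotated as retained introns, each held at most 3.23% of Dvl2 TPM in the mean of any group, and leaving them out gave share differences of 22.4 percentage points in BMM and -11.1 in OC. Counted by estimated counts instead of TPM, the share of the pair was 30.4% ± 4.57 and 56.0% ± 8.46 in WT and null BMM, and 57.8% ± 4.05 and 46.4% ± 5.51 in WT and null OC.

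A second test asked of every transcript in the table whether it changed more or less than the rest of its gene (edgeR diffSpliceDGE; the usage difference is the log2 fold change of the transcript minus that of its gene). For Dvl2 in BMM the usage difference was -0.65 for Dvl2-201 (adjusted p = 0.201) and 0.86 for each hairpin-holding transcript (adjusted p = 0.532), so neither passed over all transcripts. In limma's diffSplice the same comparison gave -1.54 (adjusted p = 1.44e-08) and 1.01 (adjusted p = 0.000196), so this call depends on the tool. Between WT cultures, Dvl2-201 fell as a part of Dvl2 from BMM to OC, with a usage difference of -0.74 (adjusted p = 0.0173). It was the only member called in that comparison, 1 of 13 tested against 2.03% of all 20713 transcripts tested. Without a filter on low counts this call had an adjusted p of 0.0731. It was also lost with the replicate number as a block and a correction for length and GC content in the same fit. With identical transcripts summed, an alternative added after seeing the data, the hairpin-holding pair was called too (0.92, adjusted p = 0.00832). limma's diffSplice called 4 of 13 members in this comparison, against 1518 of all transcripts, where edgeR called 421.

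Whether the genotype effect on usage differed between OC and BMM was tested as an interaction. It was 1.01 for Dvl2-201 (unadjusted p = 0.00617, adjusted p = 0.274) and -1.18 for each hairpin-holding transcript (adjusted p = 0.922) by edgeR. limma's diffSplice gave 2.25 (adjusted p = 5.42e-13) and -1.43 (adjusted p = 1.22e-05). The opposite direction of the 2 cell types is therefore a description of the shares above, and the edgeR fit over all transcripts did not call it.

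Acadvl overlaps the 3′ end of the hairpin-holding Dvl2 transcripts on the other strand, and no source states a strand rule for the read assignment, so reads from the overlap cannot be told apart between them. Of the 2138 stretches of 31 bases in Acadvl-202, 699 also occur in Dvl2. Acadvl-202, which includes an exon of 66 bases that Acadvl-201 lacks, held 94.1% to 96.1% of Acadvl TPM in the mean of every group, and it was not called by genotype in the usage test in any cell type (adjusted p = 1.00 in each). The other 6 Acadvl transcripts, 5 of them annotated as retained introns, held at most 3.35% each.

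Acadvl-202 stood at 77.0, 78.4 and 83.0 TPM in WT BMM and 83.8, 94.8 and 110.4 TPM in null BMM. The groups did not overlap, and the level rose by 0.45 on the log2 scale (SE 0.04, adjusted p = 6.17e-06). In OC it stood at 134, 143 and 164 TPM in WT and 91.1, 97.8 and 114 TPM in null, again without overlap, and fell by 0.28 (SE 0.06, adjusted p = 0.00263). In OB the values were 107, 111 and 119.7 TPM in WT and 125, 131 and 149 TPM in null, with a fitted log2 difference of 0.07 (SE 0.05, adjusted p = 0.390). Set side by side, mean TPM in null relative to WT was higher in BMM, lower in OC and higher in OB for Acadvl-202 and also for the hairpin-holding Dvl2 pair, whose mean TPM went from 3.11 to 3.89, from 5.00 to 3.78 and from 4.42 to 5.64. These directions are those of TPM. By the fit, the pair passed the test for level in BMM only, and Acadvl-202 passed in BMM and OC only. The part of reads shared between the 2 genes in these values was not tested.

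**Figure D3:**
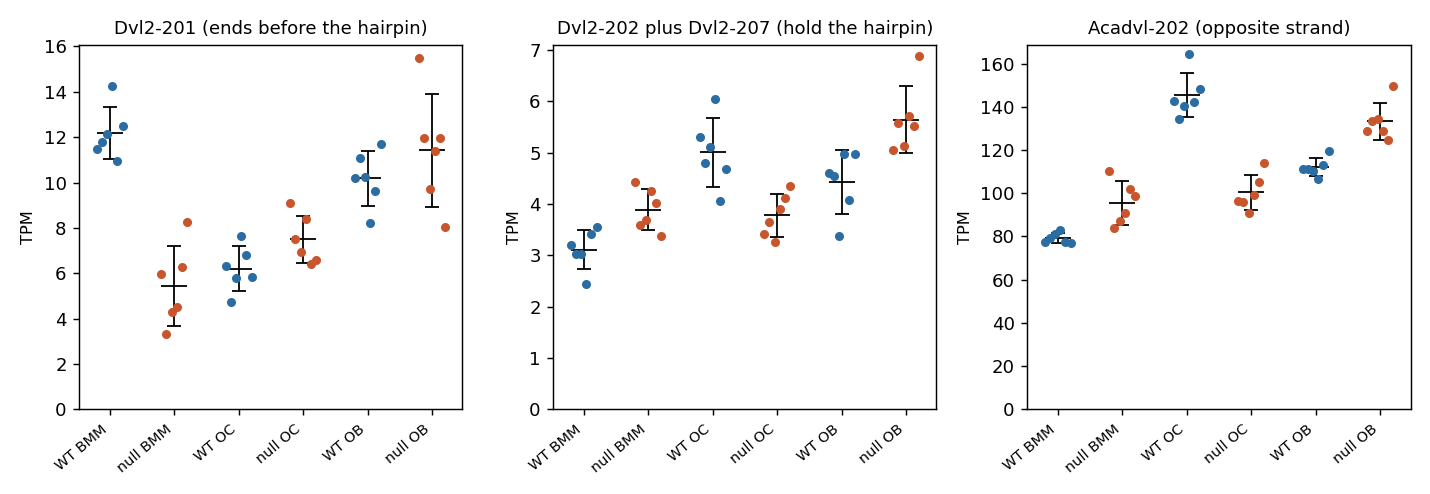
TPM (vertical axes, each starting at 0) of Dvl2-201, of the hairpin-holding Dvl2 pair and of Acadvl-202 on the opposite strand, 1 point per library in 6 groups (blue WT, orange null), with the mean and 1 SD. In BMM Dvl2-201 is lower in null (median 5.24 against 12 TPM), while the pair and Acadvl-202 are higher; in OC the pair and Acadvl-202 have lower medians in null.

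Several Phf23 transcripts differed in level between the genotypes in BMM and OC. In null BMM the full-length form Phf23-201 rose while Phf23-205 and Phf23-209, which start later, fell. In null OC, Phf23-205 fell again. Phf23-202 also fell there and Phf23-201 rose, but these calls were lost in 9 and 6 of the 12 fits without 1 library. In OB none of the 5 main Phf23 transcripts passed the test. The usage test of edgeR called neither Phf23-201 (adjusted p = 0.506 in BMM and 0.313 in OC) nor Phf23-205 (0.662 and 0.384).

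Phf23-201 stood at 28.2, 35.4 and 38.7 TPM in WT BMM and 32.9, 52.3 and 58.7 TPM in null BMM, a log2 change of 0.69 (SE 0.10, adjusted p = 0.000308). Its share of Phf23 TPM was 34.0%, 45.3% and 50.1% in WT BMM and 52.9%, 68.8% and 73.4% in null BMM, with no overlap. In OC the share was 28.4%, 44.7% and 53.7% in WT and 52.4%, 66.3% and 83.6% in null, with a small overlap, and the level change was 0.37 (SE 0.13, adjusted p = 0.0328), which a correction for length and GC content reduced to 0.23 (adjusted p = 0.178). The OC call was also lost in 6 of the 12 fits without 1 library (adjusted p up to 0.0670) and without the filter on low counts (adjusted p = 0.0505). In OB the share was similar in both genotypes, 60.6% ± 5.94 in WT and 62.1% ± 6.57 in null (n = 6 each).

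Phf23-205 stood at 6.91, 8.47 and 11 TPM in WT BMM and 2.80, 3.71 and 5.69 TPM in null BMM, and fell by 0.90 on the log2 scale (SE 0.17, adjusted p = 0.00166). In OC it stood at 11.2, 12.9 and 15.5 TPM in WT and 2.51, 3.47 and 4.93 TPM in null, and fell by 1.60 (SE 0.15, adjusted p = 1.79e-06). The ranges were apart in both cell types. In OB it was 3.53 ± 0.477 TPM in WT and 3.25 ± 0.855 TPM in null. Of the 2184 stretches of 31 bases in this transcript, 486 are its own, more than in any other of the 5 main Phf23 forms.

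Phf23-209 has only 37 stretches of its own, and its estimates were uneven. It had 88.0, 192 and 498 estimated counts in WT BMM, but under 1 count in 4 of 6 null BMM libraries and at most 67.3. Its log2 fold change in level was -3.79 (SE 1.17, adjusted p = 0.0280), and its usage difference of -3.96 was the only usage call among the members in BMM (adjusted p = 0.000978), 1 of 13 tested against 1.75% of all 19687 transcripts tested. The level call was lost without WT BMM replicate 1 (adjusted p = 0.0571) or replicate 2 (adjusted p = 0.0701), and limma's diffSplice did not make the usage call (adjusted p = 0.305). In OC, 1 of 6 WT and 3 of 6 null libraries were under 1 count, and no call was made.

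Phf23-202 stood at 14.7, 19.5 and 27.0 TPM in WT OC and 5.29, 11.4 and 16 TPM in null OC, and fell by 0.63 (SE 0.23, adjusted p = 0.0497), just inside the threshold. Leaving out single libraries moved this adjusted p as far as 0.115. Phf23-204 was 14.8 ± 5.52 TPM in WT OC and 3.62 ± 2.92 TPM in null OC, a log2 difference of -1.77 (SE 0.71) that did not pass (adjusted p = 0.0672). The other 4 Phf23 transcripts held at most 3.93% each.

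Taking the 3 transcripts that use the upstream first exon (Phf23-201, Phf23-202 and Phf23-207) against the 6 that start later, a division chosen after the values were seen and so given with no test, the upstream class held 51.0%, 62.9% and 69.8% of Phf23 TPM in WT BMM and 75.8%, 84.1% and 90.0% in null BMM. In OC it held 54.6%, 62.4% and 72.2% in WT and 72.1%, 82.3% and 92.5% in null. In OB it held 71.4%, 78.9% and 83.9% in WT and 69.4%, 78.3% and 83.1% in null. The null BMM and null OC values thus lay near those of OB, and the WT BMM and WT OC values lay lower. Total Phf23 was 78.7 ± 2.59 and 73.8 ± 9.34 TPM in WT and null BMM and 101 ± 3.44 and 71.4 ± 7.85 TPM in WT and null OC.

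**Figure D4:**
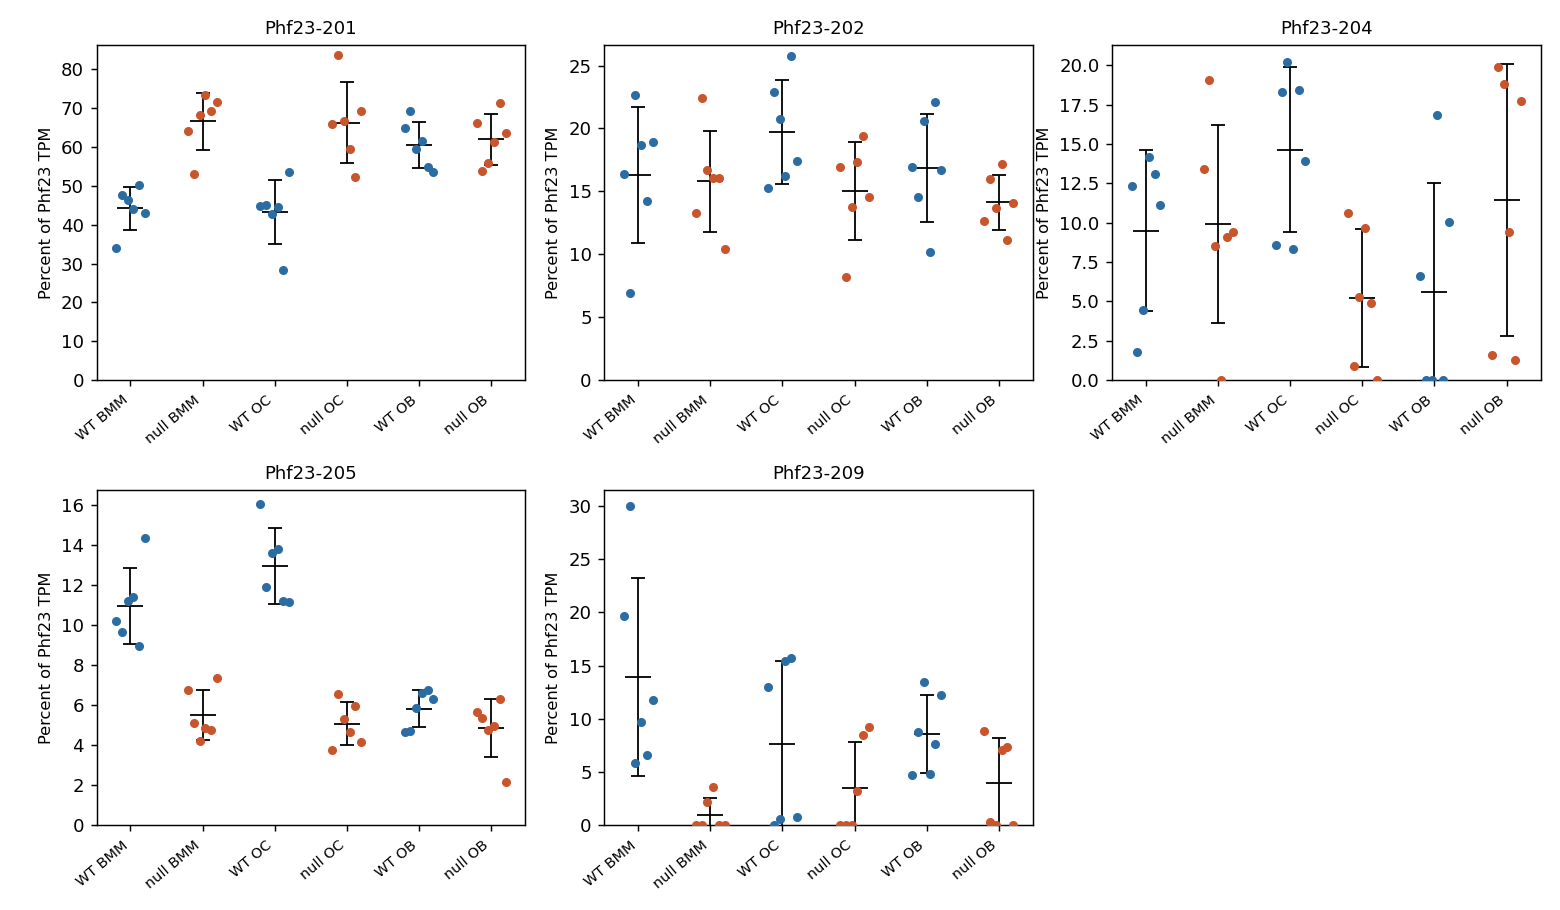
Percent of Phf23 TPM (vertical axes) held by each of the 5 main Phf23 transcripts, 1 point per library in 6 groups (blue WT, orange null), with the mean and 1 SD; bars that would pass below 0 are drawn only to 0. Phf23-205 lies apart between the genotypes in BMM and OC, Phf23-201 lies apart in BMM, and Phf23-204 and Phf23-209 have libraries at or near 0.

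Gabarap was the most abundant of the 5 genes, and its 2 coding forms kept near equal shares in every group. Gabarap-201 and Gabarap-202 together held 96.1% to 98.5% of Gabarap TPM in the group means. Gabarap-201 stood at 280.2, 306 and 324 TPM in WT BMM and 259, 279 and 305 TPM in null BMM, with a fitted log2 difference of 0.09 (SE 0.08, adjusted p = 0.427) that has the other sign in TPM. Gabarap-202 stood at 247, 276 and 295 TPM in WT BMM and 272, 297 and 348 TPM in null BMM, and rose by 0.36 (SE 0.11, adjusted p = 0.0318), a call that 7 of the 12 fits without 1 library did not keep (adjusted p up to 0.0741).

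The share of Gabarap-201 was 50.3%, 50.9% and 53.1% in WT BMM and 45.3%, 47.2% and 50.0% in null BMM. The share of Gabarap-202 was 43.3%, 46.5% and 48.7% in WT and 49.1%, 50.8% and 53.3% in null. Neither overlapped between the genotypes in BMM. The usage test did not call it (usage differences -0.08 and 0.19, adjusted p = 1.00 each).

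In OC both forms rose in null. Gabarap-201 went from 241, 243 and 258 TPM in WT to 260.3, 272 and 289 TPM in null (log2 change 0.41, SE 0.06, adjusted p = 0.000107), and Gabarap-202 from 207, 218 and 232 TPM to 238, 271 and 319 TPM (0.58, SE 0.10, adjusted p = 0.000393). Both ranges were apart. In OB both fell: Gabarap-201 from 409, 427 and 444 TPM in WT to 345, 369 and 419 TPM in null (-0.37, SE 0.06, adjusted p = 0.00144), with overlap, and Gabarap-202 from 412, 447 and 467 TPM to 343, 378 and 389 TPM (-0.44, SE 0.05, adjusted p = 0.000320), without overlap. These were the only 2 members called in OB.

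Gabarap-204, annotated as a retained intron, held 2.12% ± 1.28 of Gabarap TPM in WT BMM and 3.69% ± 1.23 in WT OB. Its usage was higher in WT OB than in WT BMM by 0.86 (adjusted p = 0.0425), 1 of the 2 usage calls among 15 members tested in that comparison, against 6.78% of all 21158 transcripts tested. Corrected for length and GC content, the difference was 0.66 and was not called (adjusted p = 0.149). Gabarap-203 held at most 0.370%.

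Dlg4 was nearly silent in the macrophage lineage and was expressed in osteoblast cultures. Its total was 1.24 ± 0.719 TPM in WT BMM, 0.150 ± 0.107 TPM in WT OC and 16 ± 4.27 TPM in WT OB (n = 6 each). Dlg4-201, a coding form, had 21.3, 26.6 and 34.0 estimated counts in WT BMM and 35.5, 50.3 and 68.1 in null BMM, with no overlap, and rose by 0.99 (SE 0.23, adjusted p = 0.00565). In WT OC it had 0 to 5.00 counts and was under 1 count in 3 of 6 libraries, while null OC had 20.8, 35.9 and 52.5 counts. The fitted log2 change of 4.25 (SE 0.79, adjusted p = 0.000743) rests on these few counts. The summed mean of the osteoblast markers was 4.08 TPM in WT and 14.8 TPM in null BMM, and 2.40 TPM in WT and 23.6 TPM in null OC. Col1a1, the main collagen of bone, made up most of these sums and was the only 1 of the 5 that could be tested there. It rose by 2.05 in null BMM and 3.37 in null OC. Ibsp went from 0.0867 to 0.0469 TPM in BMM and from 0.0776 to 4.25 TPM (SD 10.3) in OC. Alpl, Sp7 and Bglap had means of at most 0.182 TPM in BMM and OC, and Sp7 and Bglap were at 0 in null OC. The part of the osteoblast markers in the Dlg4 values was not tested. Shares of Dlg4 in OC, with 2 to 5 counts in all transcripts of a WT library, cannot be read at this depth.

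In OB, Dlg4-201 had 199.9, 271 and 359 counts in WT and 223, 283 and 476 in null, with a log2 difference of 0.02 (SE 0.20, adjusted p = 0.978). Dlg4-201 held 45.8% ± 11.3 of Dlg4 TPM in WT OB and 39.6% ± 9.66 in null OB. Dlg4-211, a short model of 404 bases, held 25.5% ± 13.9 and 35.0% ± 6.22 of TPM although it had at most 28.6 counts in a library. Dlg4-203 was listed at 0 in all 6 WT BMM libraries and had 10.9, 42.7 and 52.3 counts in WT OB, and it was the other usage call between WT OB and WT BMM (adjusted p = 0.000320), not called by limma's diffSplice (adjusted p = 0.0886). Of the other named Dlg4 transcripts, Dlg4-205 reached 14.3 counts, Dlg4-212 17.6 and Dlg4-207 2.28 in the highest library, so that their shares of 11.8% to 21.1% in some group means rest on a few counts. The lengths in the tables differ from the annotation for several Dlg4 transcripts, so their exon positions are approximate. The remaining 7 Dlg4 transcripts held at most 8.59% each.

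By share of gene TPM, 8 of the 40 transcripts did not overlap between genotypes in BMM, from 3 genes: Gabarap-201 and Gabarap-202; Phf23-201, Phf23-205 and Phf23-209; and Dvl2-201, Dvl2-202 and Dvl2-207. Over all transcripts of genes with at least 2 transcripts and some TPM in each library, 3.38% of 47404 did not overlap. In OC only Phf23-205 did not overlap (background 3.58%), and in OB none did (background 0.727%). Shares of transcripts of 1 gene sum to 100% and are not independent.

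By the usage test, edgeR called 0 of 14 members by genotype in OC, against 2.42% of 19999 transcripts. At an unadjusted edgeR p under 0.05 there were 3 members, against 1703 of the 19999. limma's diffSplice called 2 members (Phf23-201 and Dvl2-201), against 1980 of all transcripts. In OB edgeR called 0 of 18, against 0.105% of 21884. There, 0 members were under 0.05 unadjusted, against 453 of all transcripts, and limma called 0, against 216. For the difference of the genotype effect between OC and BMM, edgeR called 0 of 15, against 1.01% of 24501 transcripts. Unadjusted, 5 members were under 0.05, against 1291 of all transcripts, and limma called 3, against 680. Between OB and OC, edgeR called 0 of 19, against 1.75% of 26729. Unadjusted, 1 member was under 0.05, against 2030 of all transcripts, and limma called 3, against 1647.

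**Figure D5:**
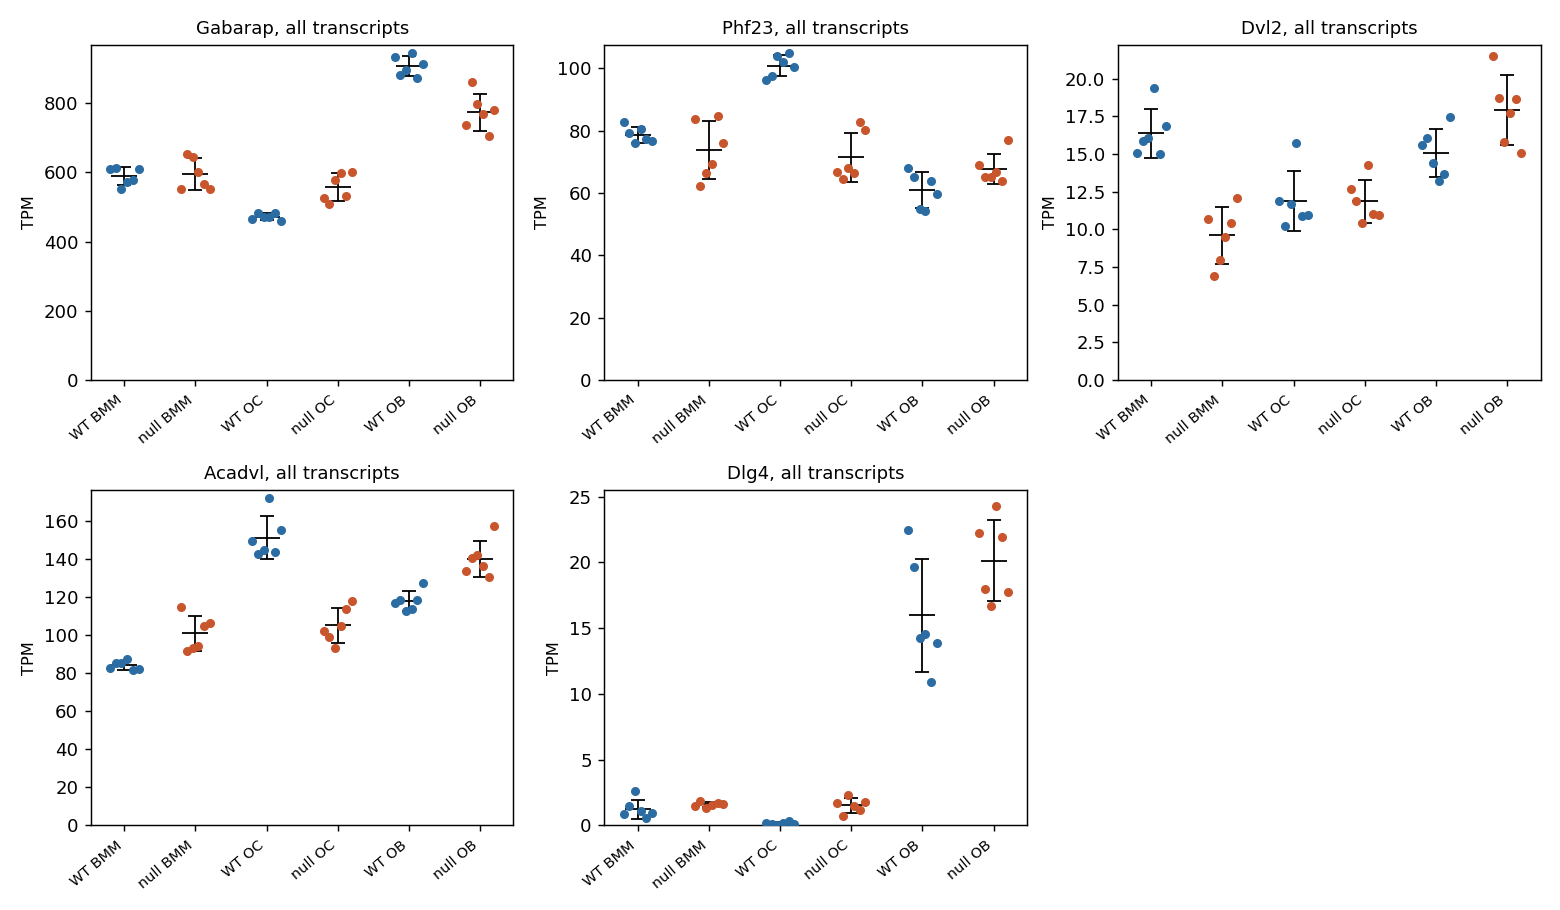
TPM summed over all transcripts of each of the 5 genes (vertical axes, each starting at 0), 1 point per library in 6 groups (blue WT, orange null), with the mean and 1 SD. Gabarap is highest in OB, Phf23 and Acadvl are highest in WT OC, and Dlg4 is near 0 outside OB.

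Summed over transcripts, the order of the groups differed from gene to gene. Gabarap ran from 907 ± 28.8 TPM in WT OB through null OB (774 ± 53.7), null BMM, WT BMM and null OC to 472 ± 9.85 in WT OC, and only null BMM, WT BMM and null OC overlapped with their neighbours. Phf23 was highest in WT OC, apart from the next group, WT BMM, and the other 5 groups formed a series in which each overlapped with the next, down to 61.0 ± 5.64 TPM in WT OB. Dvl2 ran from 17.9 ± 2.31 TPM in null OB to 9.61 ± 1.90 TPM in null BMM, and every neighbouring pair of groups overlapped. Acadvl ran from 151 ± 11.1 TPM in WT OC to 84.2 ± 2.33 in WT BMM, with null OB apart from WT OB and null BMM apart from WT BMM. Dlg4 was highest in null OB (20.1 ± 3.07 TPM) and WT OB, which overlapped, and lowest in WT OC.

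The gene families of the members were read at gene level, where 52.3% of all genes tested passed by genotype in BMM, 65.6% in OC and 32.5% in OB. Of the other Dishevelled genes, Dvl1 rose in null BMM (1.51 to 2.56 TPM, log2 change 0.92, adjusted p = 0.00113) and Dvl3 fell (2.65 to 1.42 TPM, -0.80, adjusted p = 0.0431), and both fell in null OC (-0.51 and -0.54). In OB Dvl3 rose (0.59, adjusted p = 0.00183) and Dvl1 did not pass (-0.03, adjusted p = 0.841). Dvl1 and Dvl3 stood between 1.42 and 4.91 TPM in the group means, below Dvl2 in every group.

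Of the 4 other GABARAP and LC3 genes, which are conjugated to autophagosome membranes like Gabarap, 1 rose in null BMM (Gabarapl2, 0.33), 2 rose and 2 fell in null OC, and all 4 fell in null OB, where Gabarap fell too. In OC, Gabarapl1 rose with Gabarap (35.1 to 65.8 TPM, 1.11, adjusted p = 1.16e-10), while Map1lc3a fell from 198 to 49.0 TPM (-1.65, adjusted p = 1.29e-09). The OB declines were small, from -0.18 for Map1lc3b to -0.31 for Gabarapl2, and the median of the list was -0.22 against 0.00 for all genes tested.

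Of the 12 other genes of fatty acid and related acyl-CoA oxidation, 6 fell and 1 rose in null BMM (median -0.25, all genes 0.02), 9 fell in null OC (median -0.52, all genes -0.03), and 3 fell and 1 rose in null OB (median 0.07). Acadvl moved in the other direction from 6 of the 12 in BMM, where for example Acads (54.0 to 33.3 TPM, -0.59), Hadha (-0.46) and Acadl (-0.43) fell while Acadvl rose. In OC it fell with the list, by less than Acadm (-1.03) or Hadhb (-1.20). Acad10 fell most in OC, from 22.1 to 2.74 TPM (-2.31, adjusted p = 4.96e-10).

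Of the other guanylate kinase scaffolds, Dlg1 was at 5.5 TPM in WT BMM and 11.2 TPM in WT OC and did not pass by genotype in either, and Dlg2, Dlg3 and Dlg5 were at 0.505 TPM or less there. In OB, Dlg1 (0.31, adjusted p = 0.0314) and Dlg5 (0.74, adjusted p = 8.19e-05) rose in null, and Dlg4 did not (0.03, adjusted p = 0.894). Phf13, the relative of Phf23, rose in null OC (4.52 to 9.89 TPM, 1.32, adjusted p = 7.13e-06), where Phf23 fell.

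Beyond the 5 members, 23 protein-coding genes lie within 200 kb of the hairpin. In BMM 11 of them could be tested and 3 rose and 3 fell in null, in OC 5 of 11 rose and 4 fell, and in OB 1 of 14 rose and 3 fell. Over all genes tested, 52.3% passed in BMM, 65.6% in OC and 32.5% in OB, so a call does not set a flanking gene apart. The median log2 changes of the flanking genes were 0.04, 0.09 and -0.02. The gene next to Gabarap, Ctdnep1 (69981156 to 69990601), rose in null BMM (11.3 to 20.0 TPM, 0.83, adjusted p = 0.00835) and null OC (0.76, adjusted p = 0.000107). On the other side of Dlg4, Asgr1 (70054085 to 70057894) was listed at 0 in BMM and OC, and Clec10a and Mgl2, lectins of macrophages, fell in both, for example Clec10a from 11.8 to 3.68 TPM in BMM.

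The genes whose log2(TPM + 1) ran most like that of each member over the 36 libraries, among 9385 genes with a mean of at least 5 TPM, are given as a description, since libraries of a group share their culture. For the hairpin-holding Dvl2 pair they were Slc44a1 (Pearson r = 0.86), Acadvl (0.86) and Dnajc1 (0.85), so that its opposite-strand neighbour was among its 3 nearest of the genes compared. Reads from the overlap of the pair with Acadvl cannot be told apart, so these 2 estimates are not independent. The part of shared reads in this likeness was not tested. For the other Dvl2 transcripts they were Ift172, Fance and Vps26b (0.85 to 0.86). For Dlg4 they were C1qtnf6, Fam114a1 and Mdfi (0.98 each), for Gabarap Rabac1 (0.97), Gstm5 and Selenow (0.96 each), for Acadvl they included Phospho1 (0.95) and Timmdc1 (0.93), and for Phf23 Eif4h (0.93), Pdhx and Slc12a7 (0.91 each).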

How the data were processed

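The deposited tables hold, per the file headers, a transcript identifier, its length and effective length, estimated counts and TPM for each of 36 libraries. The authors' estimated counts and TPM came from kallisto, per the submitters' processing notes, which give no version and name the build GRCh38, a human build, although every identifier is a mouse transcript. The notes also name DESeq2. Whether reads were assigned by strand is not given in the sources used here. Effective lengths were identical in all libraries.

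Of 88198 transcripts, 97.5% matched GENCODE M21 (GRCm38), and 88.9% of these had the same length. The members and lists were chosen with earlier results of these data known. Estimated counts were rounded to whole numbers. Levels were tested with edgeR 4.0.16 (quasi-likelihood, TMM normalization, filterByExpr), within each cell type and adjusted by Benjamini-Hochberg over all transcripts or genes tested, at 0.05. Usage was tested with diffSpliceDGE, and the Dvl2 share with a two-sided exact permutation test. TPM describes levels, shares and ranges. A transcript was named where it held at least 10% of its gene's TPM in any group mean or passed a usage test. Scripts were tested on simulated data. The alternatives tried were DESeq2 1.42.0, limma 3.58.1 diffSplice on voom, RLE scaling, tests without the filter or with at least 10 counts in the mean, a length and GC offset (lowess, span 0.3), the replicate number as a block, a fit of all 36 libraries, and each library left out. After the data were seen, 2 were added: summing identical transcripts and leaving out retained introns. Other marker lists (adipocyte, neuron or glia, muscle) had no gene tested in BMM or OC. In OB 1 of 4 neuron or glia genes and 2 of 4 muscle genes were tested, with 1 lower and 1 higher in null. A gene among those most like Acadvl is not reported here.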

Additional observations from a re-analysis of the deposited data

Results flagged for a closer look

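In 96 groups of 6 libraries, 5 had 1 library far from the other 5 by Dixon's test, about the 1 in 20 that chance gives. In null OB, replicate 6 held 46.7% of Gabarap TPM in Gabarap-201 (the others 48.6% to 49.2%) and 2.15% of Phf23 TPM in Phf23-205 (the others 4.77% to 6.30%), and replicate 2 held 45.2% of Gabarap TPM in Gabarap-202 (the others 47.7% to 48.9%). In WT OC, replicate 4 had 15.7 TPM of Dvl2 (the others 10.2 to 11.9), and replicate 5 had 0.349 TPM of Dlg4 (the others 0.0454 to 0.152). Without each library in turn, the hairpin-holding share differed between null and WT OC by -11.6 to -9.07 percentage points.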

How the results depend on the processing

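None of the 25 results that passed their test changed direction under any alternative that was run. Of the 132 that did not pass, 34 changed sign in at least 1 alternative, and their values close this paragraph. The replicate numbers did not pair the libraries: correlations of same-numbered libraries ran from -0.2 to 0.149, and 2 of 18 libraries correlated best with their own number. With the replicate block the Dvl2 share differences stayed at 22.5 (BMM) and -10.1 (OC) percentage points, with an adjusted exact p of 0.0938 each. The unadjusted p was 0.03125 in BMM, the smallest that the exact test can give with this block, and 0.0625 in OC. From that floor BMM could not pass on its own after adjustment over the cell types, so its lost call does not measure a weaker difference. Under the block, transcript calls in OB went from 3626 to 2362, and to 922 with the length and GC offset in the same fit. The offset alone gave 1969. Counts of usage calls depended most on the filter and the tool. Without a filter they were 823 in BMM, 882 in OC, 210 in OB, 846 for WT OC against WT BMM, 2477 for WT OB against WT BMM, 602 for the genotype effect in OC against BMM and 850 for OB against OC, where the reported tests gave 345, 483, 23, 421, 1435, 248 and 467. limma's diffSplice gave 2034, 1980, 216, 1518, 4359, 680 and 1647. A fit of all 36 libraries gave 711 in BMM, 727 in OC and 138 in OB. In OB, a mean of at least 10 counts gave 52, the offset 49 and the block with the offset 50, and leaving out each library gave 15 to 31. Among single member transcripts, limma's diffSplice added 18 calls and lost 2, leaving out libraries lost 24 and added 2 over all fits, and the block lost 6. Depth limits Dlg4 in BMM and OC. Low numbers of unshared stretches limit Dvl2-201 (22), Gabarap-202 (26), Phf23-202 (27) and Phf23-209 (37), and Acadvl-202 has 0. The values of changed sign are log2 differences between genotypes (level) or usage differences. With the length and GC offset, levels were -0.018 for Phf23-202 in BMM and, in OB, -0.053 for Dvl2-202 and Dvl2-207 and -0.086 for Dlg4-201. Usage by genotype was -0.032 for Acadvl-202 in BMM and, in OB, 0.10 for Gabarap-202 and -0.15 for Dvl2-202 and Dvl2-207. Between WT cultures it was -0.0041 for Gabarap-201 (OC against BMM) and, for OB against BMM, -0.078 for Gabarap-202, -0.12 for Phf23-202 and -0.024 for Acadvl-202. The genotype effect in OC against BMM was -0.014 for Phf23-201 and -0.10 for Acadvl-202, and in OB against OC 0.016 for Phf23-209, 0.071 for Acadvl-201 and 0.21 for Acadvl-204. With the replicate block and the offset, OB levels were -0.047 for Dvl2-202 and Dvl2-207, -0.28 for Acadvl-201 and -0.13 for Dlg4-201. Usage by genotype was -0.034 for Acadvl-202 in BMM and, in OB, 0.11 for Gabarap-202, -0.37 for Acadvl-201 and -0.14 for Dvl2-202 and Dvl2-207. Between WT cultures it was -0.0032 for Gabarap-201 (OC against BMM) and, for OB against BMM, -0.078 for Gabarap-202, -0.091 for Phf23-202 and -0.024 for Acadvl-202. The genotype effect was -0.0095 for Phf23-201 and -0.10 for Acadvl-202 (OC against BMM) and 0.43 for Acadvl-204 (OB against OC). With the replicate block alone, levels were 0.077 for Acadvl-201 in OC, -0.33 for it in OB and -0.020 for Dlg4-201 in OB, and usage was -0.40 for Acadvl-201 in OB and 0.19 for Acadvl-204 (OB against OC). limma's diffSplice gave usage of -0.96 for Acadvl-201 and 0.024 for Acadvl-202 in OB, 0.051 for Gabarap-202 (WT OC against WT BMM), -0.022 for Gabarap-201 and -0.57 for Acadvl-202 (OC against BMM) and 0.076 for Acadvl-204 (OB against OC). Without a filter, OB levels were -0.017 for Phf23-201 and -0.0072 for Dlg4-201, and Acadvl-202 usage was -0.0056 in BMM and -0.0040 for WT OB against WT BMM. DESeq2 gave OB levels of -0.016 for Phf23-201 and -0.0039 for Dlg4-201. The OB level of Phf23-201 was -0.0056 with RLE scaling and -0.00062 with identical transcripts summed, and Acadvl-202 usage in BMM was -0.0051 in the fit of all 36. With any 1 library left out, the hairpin-holding share difference in OB ran from -0.018 to 4.41 percentage points. Levels ran from -0.11 to 0.15 for Phf23-202 and -0.12 to 0.40 for Phf23-204 in BMM, and from -0.50 to 0.59 for Acadvl-201 and -0.23 to 0.17 for Acadvl-204 in OC. In OB they ran from -0.046 to 0.065 for Phf23-201, -0.12 to 0.075 for Dvl2-201, -0.29 to 0.37 for Acadvl-201 and -0.11 to 0.11 for Dlg4-201. Usage ran from -0.32 to 0.22 for Phf23-204 in BMM, and in OC from -0.032 to 0.64 for Gabarap-204, -0.24 to 0.87 for Acadvl-201 and -0.0074 to 0.00021 for Acadvl-202. In OB it ran from -0.36 to 0.28 for Acadvl-201, -0.0041 to 0.0011 for Acadvl-202, -0.066 to 0.39 for Acadvl-204 and -0.073 to 0.0047 for Dlg4-201. The cause of these changes of sign was not tested.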
